A study of Mus musculus with 9 samples.

Results

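Dendritic cells take up material from tumours and present it to T cells, and 10 genes that mark their subsets were followed in LLC tumours under 3 treatments. The members were the rows of the deposited gene table named Xcr1, Clec9a, Batf3, Irf8, Flt3, Zbtb46, Itgax, Siglech, Fscn1 and Ccr7, which are 10 of 34745 genes in the table. All 10 had 1 row each and all 10 were among the 14506 genes with enough counts to be tested. LLC is a mouse Lewis lung carcinoma line, here labelled as lung adenocarcinoma, and it was grown under the skin of male wild-type C57BL/6 mice. Mice were assigned to treatment at random once tumours measured about 100 mm3. The BTZ+anti-PDL1 group received bortezomib (BTZ, a proteasome inhibitor) at 0.5 mg/kg with an antibody against PDL1, the anti-PDL1 group received that antibody alone at 10 mg/kg, and the isotype group received a control antibody at 10 mg/kg, with 3 tumours in each group; the labels give no separate antibody dose for the combination. All injections were intraperitoneal, and no group with bortezomib alone was analysed here, so its share in the combination cannot be told apart from that of the pair. The labels give neither the time of sampling nor the number of doses, and do not say whether replicates came from separate mice, so p-values measure the spread between these samples.

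Conventional type 1 dendritic cells (cDC1) take up dying cells and cross-present their antigens to CD8 T cells. Their development needs the transcription factors Irf8 and Batf3, and they carry Xcr1, a receptor for the chemokine Xcl1 that NK and T cells release, and Clec9a, a receptor for actin exposed on dead cells. Flt3 is the receptor for the growth factor Flt3l, Zbtb46 is a transcription factor of conventional dendritic cells and Itgax is the integrin chain CD11c. Siglech marks plasmacytoid dendritic cells, which are known for type I interferon. Mature dendritic cells that leave a tissue for the lymph node switch on Ccr7, the receptor for Ccl19 and Ccl21, and the actin bundler Fscn1.

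Several of these genes are not exclusive to dendritic cells. Irf8 and Itgax are also expressed by monocytes and macrophages, Irf8 by B cells, Ccr7 by naive T cells, Flt3 by blood progenitors, and Fscn1 by many carcinoma and mesenchymal cells. In RNA from whole tumours, fewer cells of a type and less RNA per cell cannot be told apart.

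The bases before the start sites of 3 members are shown because Xcr1 and Clec9a had the highest r of all pairs of members over the 9 tumours and Itgax had the smallest p of the members between BTZ+anti-PDL1 and isotype tumours. The sequences are from RefSeq (build GRCm38.p6), hold the 250 bases before the start in the direction of the gene, and lie at chr9:123862030-123862279 on the minus strand for Xcr1, chr6:129408612-129408861 on the plus strand for Clec9a and chr7:128129300-128129549 on the plus strand for Itgax. Capitals mark matches on either strand to GGAA, the core read by ETS factors such as PU.1, and to TGANTCA, the AP-1 motif that Batf3 and its partners can bind.
Xcr1: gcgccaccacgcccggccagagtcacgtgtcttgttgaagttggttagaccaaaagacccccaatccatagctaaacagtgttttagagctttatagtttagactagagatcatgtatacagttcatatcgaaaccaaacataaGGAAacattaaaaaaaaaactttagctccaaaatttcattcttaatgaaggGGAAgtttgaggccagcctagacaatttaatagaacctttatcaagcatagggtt
Clec9a: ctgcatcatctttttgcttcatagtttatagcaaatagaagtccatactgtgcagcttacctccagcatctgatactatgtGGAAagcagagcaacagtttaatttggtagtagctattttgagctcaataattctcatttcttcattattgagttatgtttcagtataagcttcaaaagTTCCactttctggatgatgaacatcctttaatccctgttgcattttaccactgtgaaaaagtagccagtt
Itgax: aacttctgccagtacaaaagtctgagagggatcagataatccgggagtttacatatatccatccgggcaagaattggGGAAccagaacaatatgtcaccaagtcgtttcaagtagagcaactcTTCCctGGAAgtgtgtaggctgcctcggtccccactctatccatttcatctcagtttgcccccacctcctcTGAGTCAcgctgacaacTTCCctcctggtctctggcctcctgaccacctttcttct
GGAA occurred 2 times in the Xcr1 window, 2 times in the Clec9a window and 4 times in the Itgax window, and 93.4% of 32534 promoter windows of that length held it. The AP-1 letters stood 56 bases before the Itgax start, at a share of 6.73% of all windows, and were in neither the Xcr1 nor the Clec9a window. A pair of GAAA separated by 2 bases of any kind, which interferon regulatory factors can bind, was in none of the 3 and in 2.98% of windows. Both strands were searched and motifs could overlap. These are matches of letters, and the tumour data hold no measure of binding.

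Total counts were 18516282 to 21509953 per tumour. Isotype replicate 2 stood apart in T cell and macrophage RNA, though not in every list of immune genes. The summed level of 10 T cell genes was 5.49 CPM there (counts scaled to library size with TMM factors) and 23 to 42.1 CPM in the other 8 tumours, and 12 macrophage and monocyte genes summed to 969 CPM against 1430 to 1890 CPM. NK genes summed to 16 CPM there, against 13.8 and 15.8 CPM in the other isotype tumours. Neutrophil genes, at 48.1 CPM, and B cell and lymph node genes, at 1.93 CPM, were not at their lowest there. Skeletal muscle genes summed to 2480 CPM in isotype replicate 3, 887 CPM in anti-PDL1 replicate 1 and 677 CPM in BTZ+anti-PDL1 replicate 1, and to 3.78 to 177 CPM in the others. Values that shifted most without these tumours are given beside the results. Of the markers of the labelled tissue, Krt18, a keratin of simple epithelia, was present at 108 ± 4.88, 82.7 ± 22.9 and 97.1 ± 14.4 CPM in the BTZ+anti-PDL1, anti-PDL1 and isotype groups (SD, n = 3 each). The other epithelial genes read were lower. Krt8 had 3.64 to 26.6 CPM, Cdh1 1.44 to 9.3 and Krt19 0.0534 to 3.96, and Epcam had 0 to 5 counts per tumour and was not tested. The lung genes Nkx2-1, Sftpc and Sftpb had 0 counts in all 9 tumours. Napsa, on the same list of epithelial and lung genes, was present at 8.31 ± 0.575, 6.87 ± 1.45 and 6.25 ± 2.25 CPM in the same order of groups. It was lowest, at 4.16 CPM, in isotype replicate 2, where T cell and macrophage RNA was also lowest. Which cells gave the Napsa RNA was not tested.

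The 10 genes differed widely in abundance. Per length (FPKM, fragments scaled to gene length and library size, as the authors deposited them), Fscn1 had 50.7 to 83.6 FPKM over the 9 tumours, above 96.4% of tested genes by its mean. Itgax followed at 3.57 to 7.66 FPKM and Irf8 at 2.45 to 5.92 FPKM, and Itgax exceeded Irf8 in 6 of 9 tumours, so that pair has no clear order. Ccr7 had 0.723 to 3.35 FPKM, Zbtb46 0.476 to 0.813 and Flt3 0.32 to 0.754, with Zbtb46 above Flt3 in 7 of 9 tumours. The rest were scarce, namely Batf3 at 0.22 to 0.392 FPKM, Clec9a at 0.059 to 0.413, Xcr1 at 0.0214 to 0.273 and Siglech at 0.0236 to 0.173. Ranges of neighbours in this order overlapped for every pair except Fscn1 and Itgax. Siglech lay above only 2.65% of tested genes by its mean and Xcr1 above 4.33%.

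**Figure D1:**
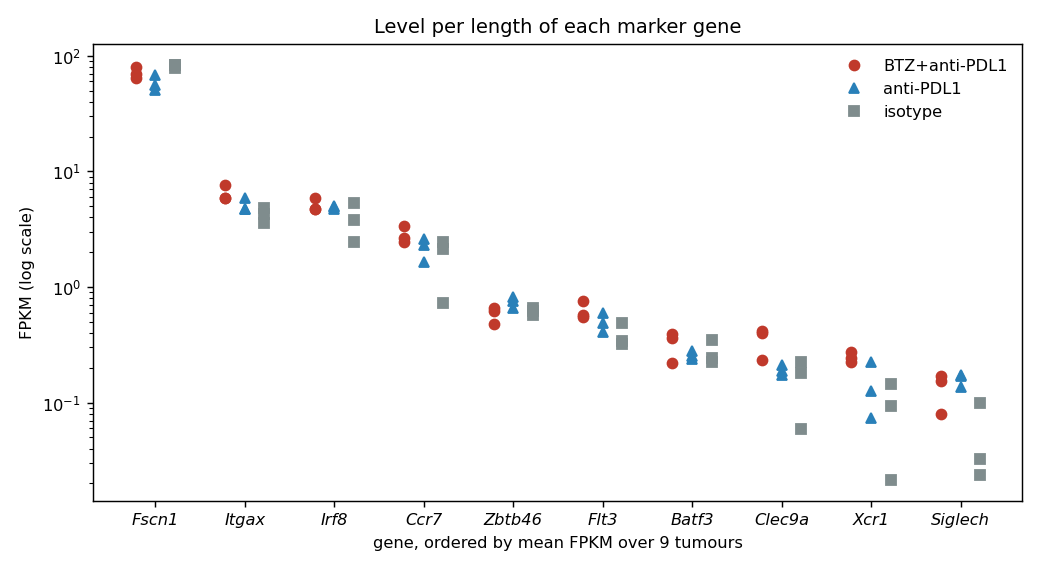
FPKM of each member on a log axis in the BTZ+anti-PDL1, anti-PDL1 and isotype tumours, 1 point per tumour, with genes ordered by mean level. Fscn1 sits at 50.7 to 83.6 FPKM in every tumour, while no other member exceeds 7.66 FPKM.

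Group means followed the order BTZ+anti-PDL1, then anti-PDL1, then isotype for 6 of the 10 members, namely Xcr1, Clec9a, Irf8, Flt3, Itgax and Ccr7. Siglech was highest in anti-PDL1 tumours and lowest in isotype tumours, Zbtb46 was highest in anti-PDL1 and lowest in BTZ+anti-PDL1 tumours, Batf3 was lowest in anti-PDL1 tumours, and Fscn1 was highest in isotype tumours. In 6 of the 10 genes the lowest tumour was isotype replicate 2. The shares of all tested genes with the order of means named first, or with that lowest tumour, were not computed. No member passed the test across all genes in any of the 3 comparisons (edgeR quasi-likelihood test, Benjamini-Hochberg adjusted p under 0.05), so what follows describes values, and each fold change carries its standard error (SE).

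**Figure D2:**
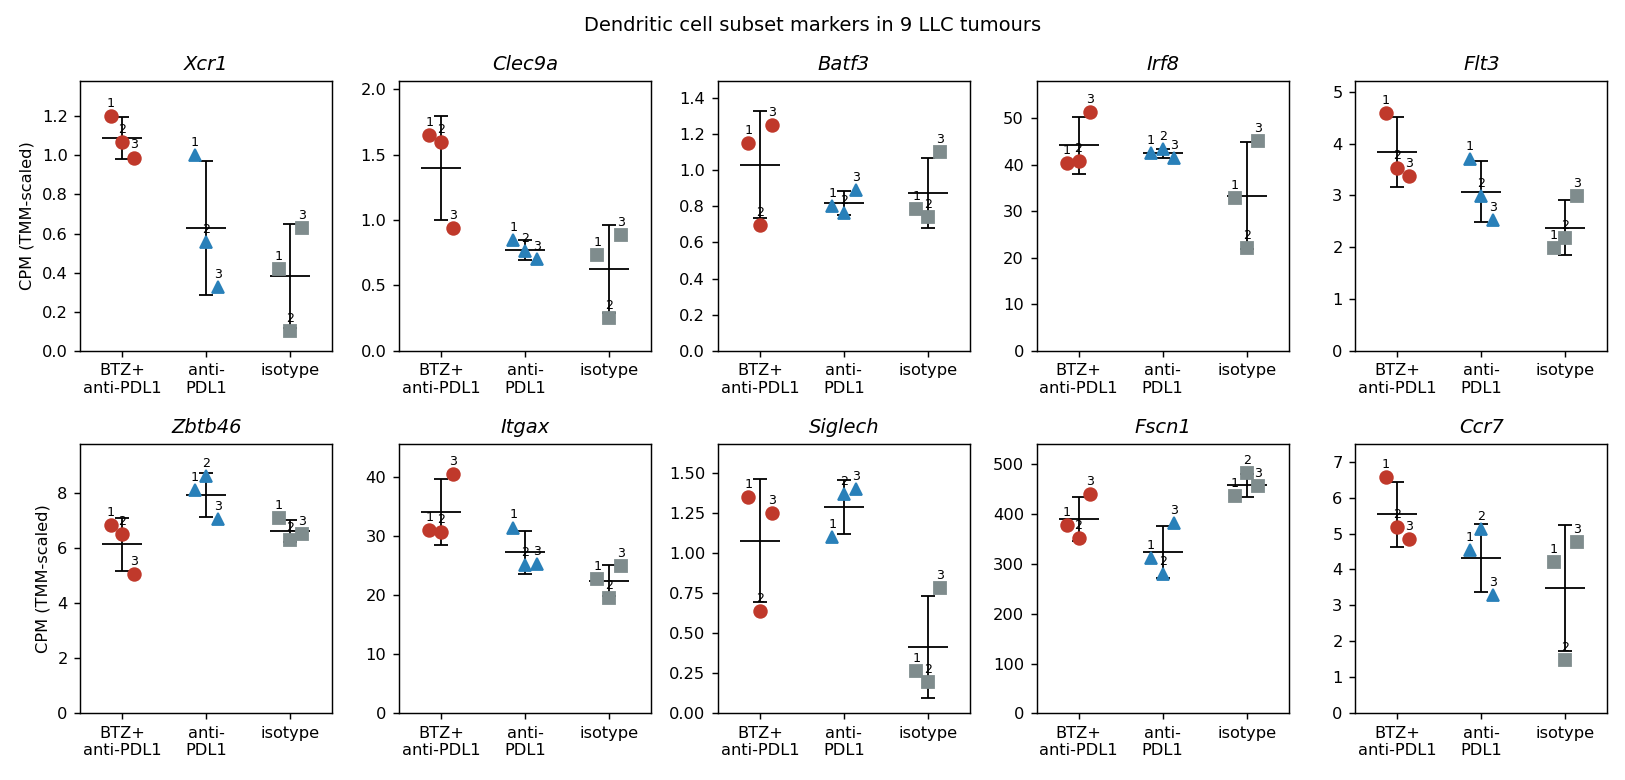
TMM-scaled CPM of each member in the BTZ+anti-PDL1, anti-PDL1 and isotype tumours, with the replicate number beside each point, the mean as a bar and the SD as error (n = 3). For Xcr1, Clec9a, Flt3, Itgax and Ccr7 every BTZ+anti-PDL1 tumour lies above every isotype tumour, and isotype replicate 2 is the lowest tumour for 6 genes.

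Among cDC1 genes, Xcr1 (ENSMUSG00000060509, chromosome 9, 123852315 to 123862029, build mm10, minus strand) had counts of 24, 20 and 19 in the BTZ+anti-PDL1 tumours, 20, 11 and 7 in the anti-PDL1 tumours, and 8, 2 and 12 in the isotype tumours. The BTZ+anti-PDL1 values sat close together and above all isotype values, while the anti-PDL1 values overlapped both other groups. The 2 counts of isotype replicate 2 carry an exact Poisson interval of 0.242 to 7.22 (95%, counting error only). Scaled, Xcr1 was at 1.09 ± 0.107 CPM in BTZ+anti-PDL1, 0.629 ± 0.342 in anti-PDL1 and 0.382 ± 0.266 in isotype tumours (SD, n = 3 each). The log2 fold change was 1.5 ± 0.587 (SE) for BTZ+anti-PDL1 against isotype (edgeR adjusted p = 0.549), 0.79 ± 0.559 for BTZ+anti-PDL1 against anti-PDL1 (0.886) and 0.71 ± 0.601 for anti-PDL1 against isotype (0.849). Against isotype, the values for BTZ+anti-PDL1 and anti-PDL1 were 1.05 ± 0.518 and 0.26 ± 0.524 without isotype replicate 2, and 2.05 ± 0.665 and 1.27 ± 0.678 without isotype replicate 3.

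Clec9a (ENSMUSG00000046080, chromosome 6, 129408862 to 129424763, plus strand) showed 33, 30 and 18 counts in BTZ+anti-PDL1 tumours, 17, 15 and 15 in anti-PDL1 tumours, and 14, 5 and 17 in isotype tumours. Its BTZ+anti-PDL1 values, 0.937 to 1.65 CPM, were above all 6 others, the nearest being 0.889 CPM in isotype replicate 3. The log2 fold change was 1.16 ± 0.453 against isotype (edgeR adjusted p = 0.549) and 0.85 ± 0.444 against anti-PDL1 (0.877). The value against isotype was 0.79 ± 0.389 without isotype replicate 2 and 1.5 ± 0.513 without isotype replicate 3. Between anti-PDL1 and isotype tumours it was 0.31 ± 0.463, and it turned to -0.07 without isotype replicate 2 and was 0.65 without isotype replicate 3. The annotation places Clec1b on the same strand across this gene, with 0 to 5 counts of its own in a tumour.

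Counts of Xcr1 and Clec9a together were 57, 50 and 37 in BTZ+anti-PDL1 tumours, 37, 26 and 22 in anti-PDL1 tumours, and 22, 7 and 29 in isotype tumours. Set against Ptprc, the leukocyte gene CD45, chosen here after its values were seen, this came to 22.8, 25.3 and 18.1 per 1000 Ptprc counts in BTZ+anti-PDL1, 19.1, 13.7 and 8.48 in anti-PDL1, and 11.1, 6.33 and 18.2 in isotype tumours. On that scale BTZ+anti-PDL1 replicate 3 and isotype replicate 3 had nearly equal values, so these groups overlapped.

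The cDC1 transcription factors behaved less evenly. Batf3 (ENSMUSG00000026630, chromosome 1, 191097847 to 191108945, plus strand) had 23, 13 and 24 counts in BTZ+anti-PDL1, 16, 15 and 19 in anti-PDL1, and 15, 15 and 21 in isotype tumours. All 3 groups overlapped, and the highest and lowest tumours were both in the BTZ+anti-PDL1 group. Its log2 fold change for BTZ+anti-PDL1 against isotype was 0.24, with a 95% interval of -0.52 to 0.99, which leaves room for differences in both directions.

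Irf8 (ENSMUSG00000041515, chromosome 8, 120736358 to 120756694, plus strand) had 40.4, 40.8 and 51.2 CPM in BTZ+anti-PDL1, 42.5, 43.4 and 41.4 CPM in anti-PDL1, and 32.9, 22 and 45 CPM in isotype tumours. The anti-PDL1 tumours lay close together, whereas the isotype tumours ran from the lowest value of the study to one above 7 of the other 8 tumours. The log2 fold change was 0.41 ± 0.222 for BTZ+anti-PDL1 and 0.35 ± 0.222 for anti-PDL1, each against isotype (edgeR adjusted p = 0.639 and 0.808). Without isotype replicate 2 these were 0.19 and 0.13, and without the 3 muscle-rich tumours 0.74 and 0.63. Macrophage and monocyte genes summed to 1570 to 1770 CPM in BTZ+anti-PDL1, 1720 to 1890 in anti-PDL1 and 969 to 1820 in isotype tumours, and their part in the Irf8 values was not tested.

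Among the genes shared by conventional dendritic cells, Flt3 (ENSMUSG00000042817, chromosome 5, 147330741 to 147400489, minus strand) had 92, 66 and 65 counts in BTZ+anti-PDL1, 74, 59 and 54 in anti-PDL1, and 38, 44 and 57 in isotype tumours. In CPM these were 4.6, 3.53 and 3.38, then 3.7, 2.99 and 2.53, then 1.99, 2.18 and 2.98. Every BTZ+anti-PDL1 tumour lay above every isotype tumour, and the anti-PDL1 tumours overlapped both. The log2 fold change for BTZ+anti-PDL1 against isotype was 0.69 ± 0.249 (edgeR adjusted p = 0.543).

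Itgax (ENSMUSG00000030789, chromosome 7, 128129547 to 128150657, plus strand) had 31, 30.7 and 40.5 CPM in BTZ+anti-PDL1, 31.5, 25.1 and 25.3 CPM in anti-PDL1, and 22.7, 19.6 and 25 CPM in isotype tumours. Both treated groups lay wholly above the isotype group, though anti-PDL1 replicates 2 and 3 were only just above the highest isotype tumour. Between BTZ+anti-PDL1 and isotype tumours Itgax had the smallest p of the members, at a log2 fold change of 0.60 ± 0.147 (edgeR adjusted p = 0.363), and this was the only member that DESeq2 called in any comparison (log2 fold change 0.60 ± 0.165, adjusted p = 0.0407). DESeq2 called 111 of 14448 genes there, 0.768%, where edgeR called 1 of 14506. Per 1000 Ptprc counts Itgax stood at 247, 291 and 380 in BTZ+anti-PDL1, 325, 261 and 208 in anti-PDL1, and 219, 359 and 301 in isotype tumours, and on that scale the 3 groups overlapped.

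Zbtb46 (ENSMUSG00000027583, chromosome 2, 181387762 to 181459426, minus strand) did not follow the other conventional dendritic cell genes. It had 6.86, 6.52 and 5.05 CPM in BTZ+anti-PDL1, 8.1, 8.63 and 7.07 CPM in anti-PDL1, and 7.08, 6.29 and 6.53 CPM in isotype tumours. The BTZ+anti-PDL1 values were all below the anti-PDL1 values and overlapped the isotype values, with a log2 fold change of -0.37 ± 0.162 against anti-PDL1 (edgeR adjusted p = 0.854) and -0.11 ± 0.162 against isotype (0.859). Zbtb46 is also expressed by endothelium, and the vessel gene Cdh5 had a log2 fold change of -0.41 ± 0.169 between BTZ+anti-PDL1 and anti-PDL1 tumours (edgeR adjusted p = 0.849). Between anti-PDL1 and isotype tumours their signs differed, with Cdh5 at -0.15 ± 0.168 and Zbtb46 at 0.26 ± 0.161, and isotype replicate 2 had the highest Cdh5 of the 9 tumours, 118 CPM. The part of vessels in the Zbtb46 values was not tested.

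For plasmacytoid dendritic cells, Siglech (ENSMUSG00000051504, chromosome 7, 55768178 to 55778925, plus strand) had 27, 12 and 24 counts in BTZ+anti-PDL1, 22, 27 and 30 in anti-PDL1, and 5, 4 and 15 in isotype tumours. All anti-PDL1 tumours were above all isotype tumours, and BTZ+anti-PDL1 replicate 2, with 12 counts, fell among the isotype values. The log2 fold change was 1.63 ± 0.519 for anti-PDL1 against isotype (edgeR adjusted p = 0.763), 1.37 ± 0.523 for BTZ+anti-PDL1 against isotype (0.543) and -0.25 ± 0.481 for BTZ+anti-PDL1 against anti-PDL1 (0.969). The 95% interval of the last, -1.33 to 0.82, is too wide to order the treated groups. The values against isotype depended on single isotype tumours. Without isotype replicate 2 they were 1.3 ± 0.534 for anti-PDL1 and 1.05 ± 0.535 for BTZ+anti-PDL1, and without isotype replicate 3 they were 2.46 ± 0.494 and 2.21 ± 0.496. Without the 3 muscle-rich tumours they were 2.56 and 2.01.

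The migratory markers had fold changes of opposite sign against isotype tumours. Ccr7 (ENSMUSG00000037944, chromosome 11, 99144196 to 99155077, minus strand) had 6.56, 5.18 and 4.84 CPM in BTZ+anti-PDL1, 4.55, 5.13 and 3.28 CPM in anti-PDL1, and 4.2, 1.48 and 4.76 CPM in isotype tumours. The BTZ+anti-PDL1 tumours were above the isotype tumours by a narrow margin, and isotype replicate 2 was far below the rest. The log2 fold change of 0.67 ± 0.378 against isotype (edgeR adjusted p = 0.645) was 0.31 without that tumour and 0.96 without isotype replicate 3. For anti-PDL1 against isotype the value of 0.31 ± 0.379 turned to -0.05 without isotype replicate 2 and was 0.60 without isotype replicate 3.

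Fscn1 (ENSMUSG00000029581, chromosome 5, 142960343 to 142973185, plus strand) had 378, 352 and 439 CPM in BTZ+anti-PDL1, 312, 280 and 381 CPM in anti-PDL1, and 435, 481 and 455 CPM in isotype tumours. All anti-PDL1 tumours were below all isotype tumours, and BTZ+anti-PDL1 tumours lay between and overlapped both. Its log2 fold change was -0.49 ± 0.12 for anti-PDL1 against isotype (edgeR adjusted p = 0.763), -0.23 ± 0.12 for BTZ+anti-PDL1 against isotype (0.629) and 0.26 ± 0.12 for BTZ+anti-PDL1 against anti-PDL1 (0.861). In isotype replicate 2, where Ccr7 was lowest, Fscn1 was at its highest.

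In FPKM, Fscn1 exceeded Ccr7 by 20.6, 24.3 and 32.4 times in BTZ+anti-PDL1, 24.5, 19.5 and 41.5 times in anti-PDL1, and 37, 116 and 34.1 times in isotype tumours, so the ratio of these markers was not constant. Krt18 had 113, 106 and 104 CPM in BTZ+anti-PDL1, 91.9, 56.6 and 99.5 CPM in anti-PDL1, and 105, 106 and 80.4 CPM in isotype tumours. The tumour with the lowest Fscn1, anti-PDL1 replicate 2, had the lowest Krt18, while the keratins Krt8 and Krt19 were not low there, at 16.2 and 1.22 CPM against 3.64 to 26.6 and 0.0534 to 3.96 CPM in the other 8 tumours. It also had the highest summed level of 7 mesenchymal and vessel genes, 13200 CPM against 8870 to 10700 CPM in the other 8. The part of tumour or stromal cells in the Fscn1 values was not tested.

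**Figure D3:**
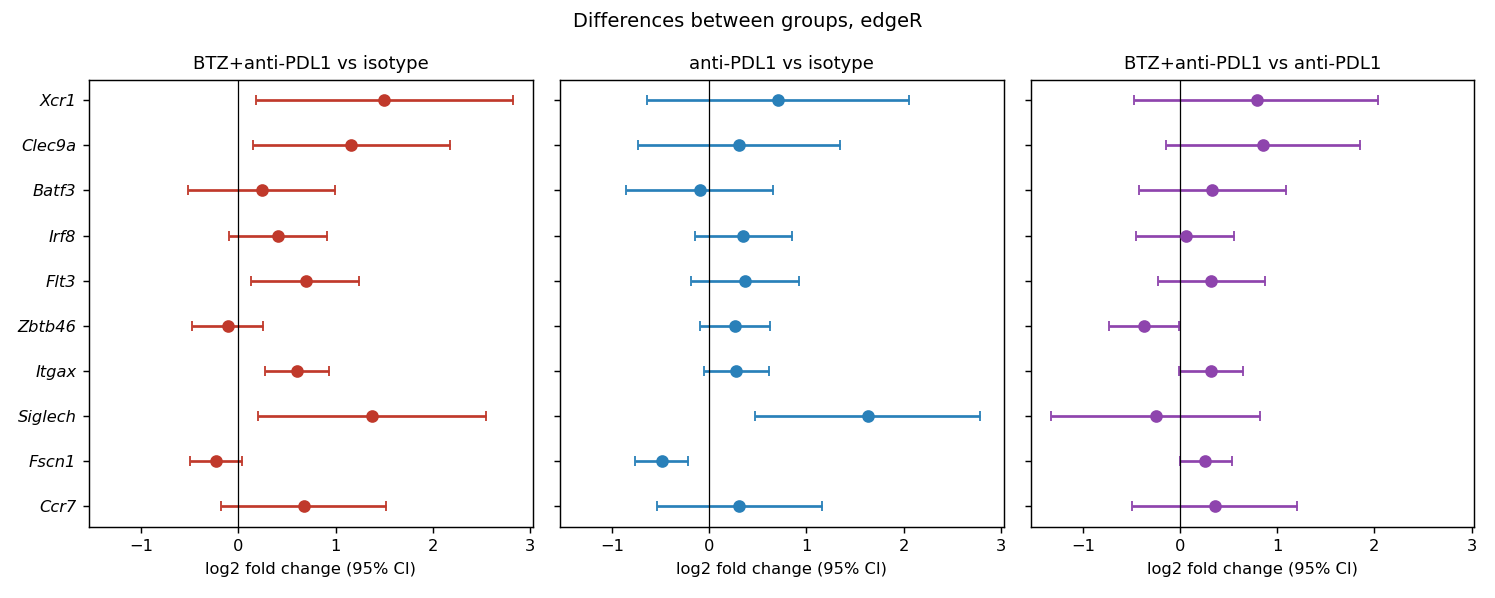
Log2 fold change of each member with its 95% interval (edgeR, 3 tumours per group) for BTZ+anti-PDL1 against isotype, anti-PDL1 against isotype and BTZ+anti-PDL1 against anti-PDL1. The intervals are widest for the scarce genes Xcr1, Siglech and Clec9a, and none of the values passed adjustment over all genes.

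Across the members, BTZ+anti-PDL1 tumours had higher values than isotype tumours for 8 of 10 genes, where 49.7% of all 14506 tested genes had a fold change above 0. The median log2 fold change was 0.64 over the members and -0.001 over all tested genes. For 5 of 10 members (Xcr1, Clec9a, Flt3, Itgax and Ccr7) the BTZ+anti-PDL1 tumours lay wholly above the isotype tumours, against 6.96% of tested genes, and for 0 wholly below, against 6.03%. Per 1000 Ptprc counts only Xcr1 of these 5 stayed apart, at 9.29 to 10.1 in BTZ+anti-PDL1 and 1.81 to 7.55 in isotype tumours. Clec9a, Flt3, Itgax and Ccr7 overlapped on that scale, and 2 members, Zbtb46 and Fscn1, lay wholly lower. The share of all tested genes that lay apart on that scale was not computed, so these counts have no background beside them. In edgeR 0 members were called, against 0.00689% of tested genes, and 5 (Xcr1, Clec9a, Flt3, Itgax and Siglech) had an unadjusted p under 0.05, all higher, against 8.6% of tested genes in either direction and 4.42% higher; DESeq2 called Itgax only, against 0.768% of genes. In all 5 wholly higher genes the isotype tumour nearest to the BTZ+anti-PDL1 group was replicate 3 and not replicate 2. Without isotype replicate 2 the values were higher for 8 of 10 members with a median of 0.41, and 1 member, Itgax, had an unadjusted p under 0.05. Without the 3 muscle-rich tumours 8 of 10 were higher, with a median of 0.75.

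Anti-PDL1 tumours also had higher values than isotype tumours for 8 of 10 members, where 49% of tested genes did, with a median log2 fold change of 0.31 against -0.003 over all tested genes. Groups were apart for Itgax and Siglech on the higher side, 2 of 10 against 6.08% of tested genes, and for Fscn1 on the lower side, 1 of 10 against 6.61%. Per 1000 Ptprc counts Siglech stayed wholly higher and Fscn1 wholly lower, and Itgax overlapped, with no share over all tested genes computed on that scale. EdgeR called 0 members, against 0.0138% of tested genes, DESeq2 called 0, against 0.104%, and 2 members had an unadjusted p under 0.05, against 6.35%, namely Siglech, higher, against 3.01%, and Fscn1, lower, against 3.34%. Without isotype replicate 2, 6 of 10 members were higher and the median was 0.16. Without the 3 muscle-rich tumours, 9 of 10 were higher and the median was 0.48.

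Between BTZ+anti-PDL1 and anti-PDL1 tumours, 8 of 10 members had higher values in the combination, where 50.8% of tested genes did, and the median log2 fold change was 0.32 against 0.003 over all tested genes. Clec9a was wholly higher, 1 of 10 against 7.33% of tested genes, and Zbtb46 wholly lower, 1 of 10 against 6.99%, which is near the background share. Per 1000 Ptprc counts Zbtb46 overlapped, and Clec9a stayed wholly higher by a narrow margin, with a lowest value of 8.8 against a highest of 8.78. The share over all tested genes on that scale was not computed. EdgeR called 0 members, against 0.0138% of tested genes, DESeq2 called 0, against 0.367%, and Zbtb46, lower, was the 1 member with an unadjusted p under 0.05, against 5.82% of tested genes in either direction, 2.67% lower and 3.15% higher. Without isotype replicate 2, Zbtb46 missed that threshold, and 2 members, Clec9a and Itgax, both higher, were under it (edgeR adjusted p = 0.782 for each of the 3). The 3 comparisons share tumours with each other, and the members were chosen with earlier results of these data known, so these counts describe the list and are no separate test of it.

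Some of the members also varied together from tumour to tumour. Over 45 pairs, Pearson r of log2 CPM over the 9 tumours was above 0 in 31 and below 0 in 14, and 5 pairs passed adjustment over the 45 (two-sided exact permutation test). The test exchanges tumours across groups, so differences between groups enter its p-values. How often pairs of other genes reach such r was not computed. Xcr1 and Clec9a had r = 0.92 (exact permutation p = 4.96e-05, adjusted p = 0.00223) and Spearman rho = 0.95 (p = 0.000353, adjusted p = 0.0159). After subtraction of group means r was 0.83, and without the 2 tumours farthest from the Xcr1 median it was 0.72. The other 4 pairs were Clec9a with Ccr7 (r = 0.91, adjusted p = 0.0062, exact permutation test; rho = 0.90, adjusted p = 0.0304), Xcr1 with Ccr7 (0.91, 0.00996; rho = 0.85, adjusted p = 0.0683), Xcr1 with Flt3 (0.85, 0.0317; rho = 0.92, adjusted p = 0.0295) and Xcr1 with Itgax (0.85, 0.039; rho = 0.73, adjusted p = 0.175). Without the 2 tumours farthest from the median of the first gene their r was 0.58, 0.74, 0.87 and 0.79 in that order, and the relation of Clec9a with Ccr7 did not hold there (exact permutation p = 0.157). Without isotype replicate 2, 0 of 45 pairs passed over the remaining 8 tumours, with r of 0.79 for Xcr1 and Clec9a, 0.76 for Clec9a and Ccr7, 0.79 for Xcr1 and Ccr7, 0.89 for Xcr1 and Flt3, and 0.77 for Xcr1 and Itgax. The r of Xcr1 with Flt3 was thus higher without that tumour, and the other 4 were lower. After subtraction of group means, r was 0.90 for Clec9a with Ccr7 and 0.89 for Xcr1 with Ccr7, above that of Xcr1 with Clec9a.

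Batf3, which cDC1 development needs, was only loosely related to the cDC1 receptor genes Xcr1 and Clec9a, at 13 to 24 counts per tumour. Its r was 0.40 with Xcr1 (exact permutation p = 0.291, and rho = 0.28, p = 0.463) and 0.33 with Clec9a (p = 0.402, and rho = 0.38, p = 0.312). Fscn1 had a negative r with 8 of the other 9 members, including -0.48 with Ccr7 (exact permutation p = 0.196; rho = -0.52, p = 0.162), and a positive one with Batf3. Its lowest r was -0.75 with Zbtb46 (exact permutation p = 0.0179, adjusted p = 0.0871, and rho = -0.70, p = 0.0433). After subtraction of group means, r of Fscn1 was 0.51 with Batf3, 0.21 with Itgax, 0.19 with Siglech and -0.01 with Irf8. It stayed negative with Flt3 (-0.34), Xcr1 (-0.46), Clec9a (-0.48), Ccr7 (-0.51) and Zbtb46 (-0.87). Differences between groups thus entered the negative values with Itgax, Siglech and Irf8. Without the 2 tumours farthest from the median of the first gene, r was 0.08 for Xcr1 and Batf3, -0.21 for Clec9a and Batf3, -0.07 for Fscn1 and Ccr7, and -0.72 for Zbtb46 and Fscn1.

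**Figure D4:**
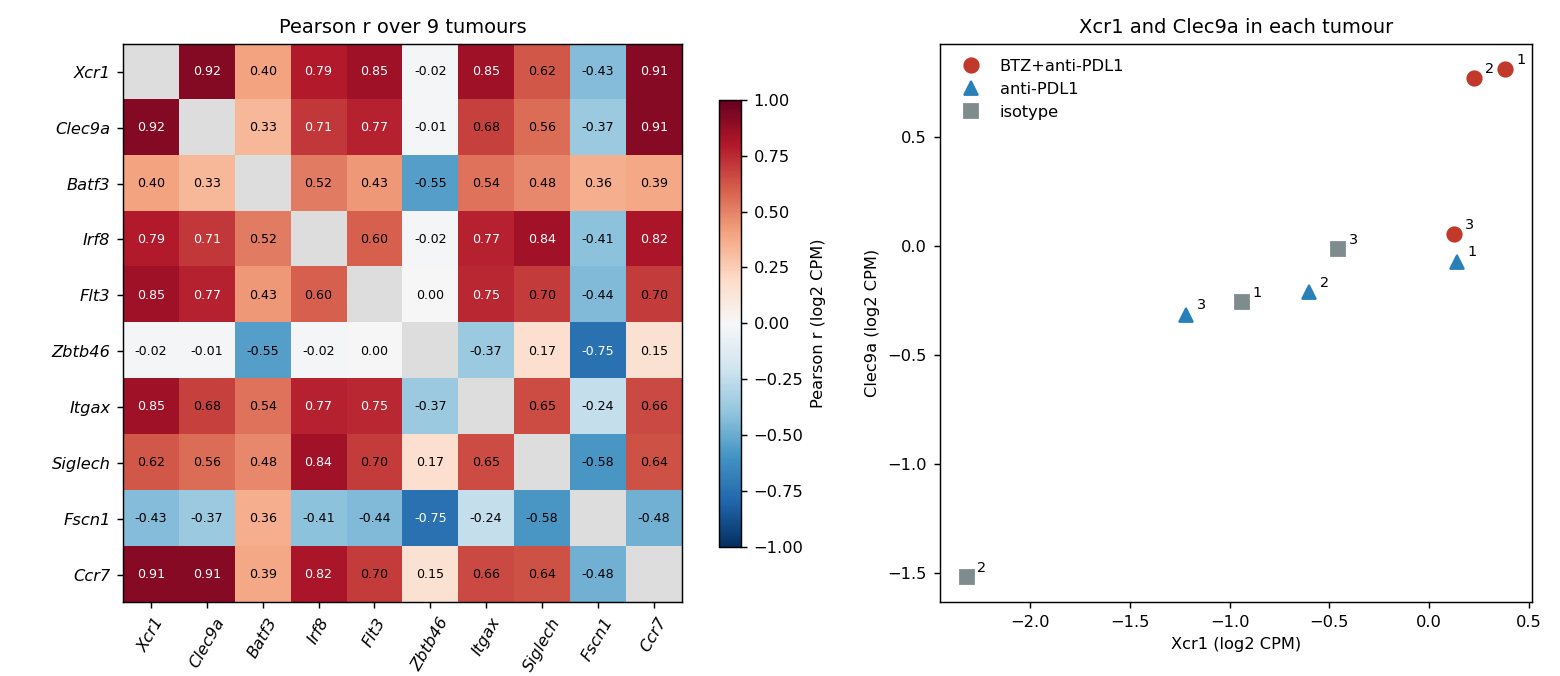
Left, Pearson r of log2 CPM over the 9 tumours for each of the 45 pairs of members; right, Xcr1 against Clec9a in log2 CPM, 1 point per tumour of the BTZ+anti-PDL1, anti-PDL1 and isotype groups with its replicate number. Xcr1 and Clec9a reach r = 0.92, isotype replicate 2 lies at the lower left, and Fscn1 is negative with 8 of 9 other members. Group means were not subtracted, so differences between groups enter these r.

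For members with a mean of at least 1 CPM, the most similar genes over the 9 tumours were looked up among 12263 others, as a description. Irf8 was closest to Tgtp2 (Pearson r = 0.984), Gbp7 (0.979) and Plbd1 (0.978), of which the first 2 are interferon-inducible GTPases. Itgax was closest to Irf9 (0.970), a subunit of the interferon-activated complex ISGF3, then Spint1 (0.963) and H2-D1 (0.95). Ccr7 was closest to Klhl6 (0.972), Cd52 (0.964), a lymphocyte surface protein, and Adgrg5 (0.963), and Flt3 to Btla (0.955), a receptor of lymphocytes and dendritic cells, Zfp595 (0.951) and Med18 (0.948). For Zbtb46, Scara5 (0.921) and Fam234b (0.909) were among the 3 most similar genes. Fscn1 was closest to Polr2m (0.960), Rbm8a2 (0.940) and Prss22 (0.930), none of them a member or a listed dendritic cell gene. Such values come from the same libraries and from a search over many genes.

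Other genes of the same subsets gave a mixed picture, and 0 of them passed in edgeR in any comparison. Of 7 further cDC1 genes, 5 were higher in BTZ+anti-PDL1 than in isotype tumours (median log2 fold change 0.38), with the smallest p for Tlr3, an endosomal sensor of double-stranded RNA (0.44 ± 0.14, edgeR adjusted p = 0.52), and Wdfy4, which cross-presentation needs (0.54 ± 0.199, 0.543). Wdfy4 had 30.6, 25.8 and 25.1 CPM in BTZ+anti-PDL1, 26.5, 26.6 and 28.8 CPM in anti-PDL1, and 18.4, 13 and 24.7 CPM in isotype tumours. The treated groups did not overlap the isotype group, yet they overlapped each other, unlike Clec9a. For anti-PDL1 against isotype 6 of these 7 genes were higher (median 0.37), much as in the combination. Between BTZ+anti-PDL1 and anti-PDL1 tumours only 2 of these 7 were higher (median 0.00). Of all tested genes 49.7% were higher for BTZ+anti-PDL1 against isotype, 49% for anti-PDL1 against isotype and 50.8% for BTZ+anti-PDL1 against anti-PDL1.

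Of 6 measured genes of type 2 conventional dendritic cells, 4 were higher in BTZ+anti-PDL1 than in isotype tumours, 5 in anti-PDL1 than in isotype tumours, and 1 in BTZ+anti-PDL1 than in anti-PDL1 tumours. Sirpa, the CD47 receptor, which macrophages express too, had 0.96 ± 0.373 for anti-PDL1 against isotype (edgeR adjusted p = 0.763). Of 11 measured genes of mature dendritic cells, 8 were higher in BTZ+anti-PDL1 than in isotype tumours (median 0.26) and 6 in anti-PDL1 than in isotype tumours (median 0.00). The smallest p of the list was that of Cd40, the receptor for help from T cells, in the first comparison (0.47 ± 0.202, edgeR adjusted p = 0.569), and that of Cd80, a ligand of CD28, in the second, where it was lower (-0.64 ± 0.23, 0.763). Of 8 measured plasmacytoid genes, 5 were higher in BTZ+anti-PDL1 than in isotype tumours and 4 in anti-PDL1 than in isotype tumours. Irf7 and Bst2, which interferon induces in many cell types, had the smallest p in the first at 1.08 ± 0.158 (edgeR adjusted p = 0.106) and 0.55 ± 0.15 (0.47). Irf7 was at 29, 31 and 40.3 CPM in BTZ+anti-PDL1, 19.1, 17 and 15.6 CPM in anti-PDL1, and 15.3, 13.8 and 18.5 CPM in isotype tumours, a different order from Siglech, which was highest in anti-PDL1 tumours.

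The ligands of the receptors were read beside them. Xcl1, the ligand of Xcr1, had 41, 18 and 28 counts in BTZ+anti-PDL1, 18, 26 and 17 in anti-PDL1, and 10, 3 and 21 in isotype tumours, with a log2 fold change of 1.33 ± 0.585 for BTZ+anti-PDL1 against isotype (edgeR adjusted p = 0.573). Like Xcr1 it was lowest in isotype replicate 2 and highest in BTZ+anti-PDL1 replicate 1. The same tumours were the extremes for Clec9a, Ccr7 and the T cell gene Trac, so this was not particular to Xcl1 and Xcr1. Flt3l, the ligand of Flt3, had 8.86, 10.6 and 9.37 CPM in BTZ+anti-PDL1, 8.45, 7.26 and 7.96 CPM in anti-PDL1, and 9.08, 6.04 and 7.74 CPM in isotype tumours, and the groups overlapped except for BTZ+anti-PDL1 against anti-PDL1. Ccl19 and Ccl21a, the ligands of Ccr7, had 0 counts in every tumour; Ccl21a has near-identical copies, so its reads are uncertain. Cxcl10, a chemokine for activated T cells, had a log2 fold change of 1.16 ± 0.325 for BTZ+anti-PDL1 against isotype (edgeR adjusted p = 0.498). Ccl4, an inflammatory chemokine, was the only one of the 6 tested genes of this list with a lower value in that comparison, at 2.8, 2.56 and 3.49 CPM in BTZ+anti-PDL1 and 5.04, 3.71 and 4.97 CPM in isotype tumours (-0.63 ± 0.265, edgeR adjusted p = 0.565).

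Markers of other cells that can carry these genes were read beside them. All 10 genes of the T cell list, which bears on Ccr7, had higher values in BTZ+anti-PDL1 than in isotype tumours, with a median log2 fold change of 0.74. For anti-PDL1 against isotype 10 of 10 were higher too (median 0.66), and for BTZ+anti-PDL1 against anti-PDL1 8 of 10 (median 0.12). Of all tested genes 49.7%, 49% and 50.8% were higher in these 3 comparisons. The 10 genes summed to 25.5 to 42.1 CPM in BTZ+anti-PDL1, 27.6 to 32.8 in anti-PDL1 and 5.49 to 32.2 in isotype tumours. In the NK list 7 of 7 were higher in BTZ+anti-PDL1 than in isotype tumours, also with a median of 0.74. For anti-PDL1 against isotype 6 of 7 were higher (median 0.31), and for BTZ+anti-PDL1 against anti-PDL1 7 of 7 (median 0.31). The NK genes summed to 21 to 25.2, 16.4 to 21.6 and 13.8 to 16 CPM in the BTZ+anti-PDL1, anti-PDL1 and isotype groups. B cell and lymph node genes summed to 0.944 to 3.61 CPM over all 10 genes and all 9 tumours. The part of T and NK cells in the values of the members was not tested. The positions printed for the members are those of the deposited table, and all 10 were the same in the GENCODE M21 annotation.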

How the data were processed

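RNA of 9 subcutaneous LLC tumours was sequenced by the submitters from total RNA with a universal Illumina kit, per the labels' protocols. The deposited counts are whole, unnormalised counts per gene and FPKM was computed by the authors, per the file headers. HISAT2 2.0.4, StringTie 1.3.3b and build mm10 are named without roles, per the submitters' processing notes, and the counting tool and strand setting are not given in the sources used here. Reads of overlapping genes are therefore uncertain. BTZ+anti-PDL1 columns were matched to samples by treatment label and replicate number, the others by title, though the titles of the isotype libraries say blank.

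From the counts, genes were tested with edgeR 4.0.16 (R 4.3.3), robust quasi-likelihood, TMM, 1 model of 3 group means, after filterByExpr with a minimum count of 10. The procedure was run on simulated data beforehand. That simulation used a single spread for all genes and changed only genes with higher mean counts than Xcr1, Clec9a, Batf3 and Siglech. It therefore does not cover these scarce members. SE is the absolute log2 fold change over the square root of F. Log2 CPM used a prior count of 2. FPKM served only for levels. Alternatives were RLE, other filters, 6 tumours, a replicate block, DESeq2 1.42.0, limma-trend (limma 3.58.1) and leaving out tumours. Members and lists were chosen with earlier results of these data known. All members are described. From other lists up to 2 genes per list and comparison with the smallest p could be named. Ptprc, Flt3l, Ccl19, Ccl21a, Epcam and the lung genes are exceptions chosen after their values were seen. Some genes that the rule names are not reported here. Itgam and Ccl21a were followed by ID.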

Additional observations from a re-analysis of the deposited data

How the results depend on the processing

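Members called numbered 0 in each comparison under every setting except DESeq2, which called 1 for BTZ+anti-PDL1 against isotype. The count of all genes called was small and unstable. For BTZ+anti-PDL1 against isotype it was 1, with 6 without a filter on low counts, 111 with DESeq2, 3 with limma-trend, and 0 with the replicate block, with only the 6 tumours compared or without the 3 muscle-rich tumours (a setting chosen after seeing the data), and 0 to 20 leaving out 1 tumour. For anti-PDL1 against isotype it was 2, with 15 under DESeq2, 1 with the replicate block, 0 without the muscle-rich tumours and 1 to 4 leaving out 1 tumour. For BTZ+anti-PDL1 against anti-PDL1 it was 2, with 4 without a filter, 53 with DESeq2, 1 with the block, 12 with only the 6 tumours, 0 without the muscle-rich tumours and 1 to 7 leaving out 1 tumour. The cause of these moves was not tested. In a check for pairing by replicate number, 3 of 9 same-numbered pairs had a correlation of deviations over 0.1 (range -0.434 to 0.393). Of the 9 tumours, 1 correlated best with its own number. The check had no reference distribution, so it cannot exclude that replicate numbers pair the tumours.

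Of 498 alternative values for member fold changes 7 turned sign, all at small values. With 1 tumour left out, the log2 fold change ran from -0.20 to 0.02 for Zbtb46 (BTZ+anti-PDL1 against isotype), from -0.07 to 0.65 for Clec9a, -0.20 to 0.10 for Batf3 and -0.05 to 0.60 for Ccr7 (anti-PDL1 against isotype), and from -0.45 to 0.01 for Siglech and -0.06 to 0.11 for Irf8 (BTZ+anti-PDL1 against anti-PDL1). Batf3 was also 0.11 without the muscle-rich tumours (anti-PDL1 against isotype). The number of related pairs, 5, was 0 to 8 with 1 tumour left out, and r ran from -0.14 to 0.18 for Flt3 with Zbtb46 and -0.61 to 0.28 for Zbtb46 with Itgax. Depth limits Xcr1, Clec9a, Batf3 and Siglech, at 2 to 33 counts per tumour. With a minimum count of 30 these 4 were not tested.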
